A study of Phaseolus vulgaris with 6 samples.

Results

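A set of 22 genes of the common bean (Phaseolus vulgaris) stood higher in every hooked-hair library and every EPI trichome library than in both AG trichome libraries. RNA sequencing measured 6 libraries of hair-like structures from genotype L88-57, in 3 groups of 2: BG, labelled hooked hairs, and EPI and AG, both labelled trichomes. All 6 came from plants kept in a growth chamber at low light with no treatment, and no group carries another allele as far as the labels say. The labels do not spell out the codes BG, EPI and AG, so what else separates the groups, such as organ or place on the plant, is unknown, and nothing states that both libraries of a group had separate plants as their source. The comparison asks which genes hooked hairs and EPI trichomes hold at a high level and AG trichomes do not.

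The genes were chosen by TPM, the authors' measure of RNA level, which is scaled for gene length and library size. The lowest of the 4 BG and EPI libraries had to reach 10 TPM and at least 3 times the highest AG library. Of the 27433 genes listed, 10407 reached 10 TPM in all BG and EPI libraries, and 25 of these also passed 3-fold. A further step left out genes whose lower BG library was at least 2 times the higher EPI library, which removed 3, and genes whose lower EPI library was at least 3 times the higher BG library, which removed 0. That left 22 genes. Since the rule read all 6 libraries, the differences between groups below are a description of what was chosen and no test of it.

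Plant hairs grow out of epidermal cells. Trichomes can be straight or branched, glandular or not, and are known in many species as a barrier against insects and as a place where defence compounds are made. Hooked hairs end in a curved tip, and on bean leaves such hairs are known to catch the legs of small insects. The gene IDs carry no gene names or products here, so the genes are described by level, pattern and position, and neither the labelled structures nor other tissues could be checked against marker genes.

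The libraries did not stand equally far apart. In the 21571 genes that reached 1 TPM in 2 or more libraries, EPI library 1 correlated at Pearson r = 0.847 and 0.830 with the BG libraries on the log2(TPM + 1) scale, and EPI library 2 at 0.757 and 0.782. With the AG libraries, EPI library 1 correlated at 0.837 and 0.873 and EPI library 2 at 0.880 and 0.913. The BG libraries correlated with the AG libraries at 0.739 to 0.793. Both values of EPI library 2 with BG lay within this range, so over all genes it was no nearer to BG than AG was. The EPI libraries correlated at 0.903 with each other. These are descriptions across genes. Folds of the summed levels and membership are therefore given with and without EPI library 1. Median folds over AG and ratios of single genes use both EPI libraries. In whole-structure RNA, a lower level can mean fewer cells that hold a transcript or less of it per cell, and these cannot be told apart.

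Taken as a sum, the 22 genes reached 2544 and 2821 TPM in BG, 2276 and 776 TPM in EPI, and 147 and 157 TPM in AG. They made up 0.276% and 0.296% of the listed TPM in BG, 0.237% and 0.0810% in EPI, and 0.0156% and 0.0167% in AG. Both AG libraries were low and close to each other, both BG libraries were high, and the EPI libraries split, with library 1 near the hooked hairs and library 2 between the groups. The mean sum was 17.7-fold higher in BG than in AG and 10.04-fold higher in EPI than in AG. Without EPI library 1 the EPI fold was 5.10, and without EPI library 2 it was 15.0. The most abundant 5 genes held 60.4% of the mean BG and EPI level summed over the set, so the sum mostly follows these. The median member was 10.02-fold higher in BG than in AG and 8.70-fold higher in EPI than in AG.

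**Figure D1:**
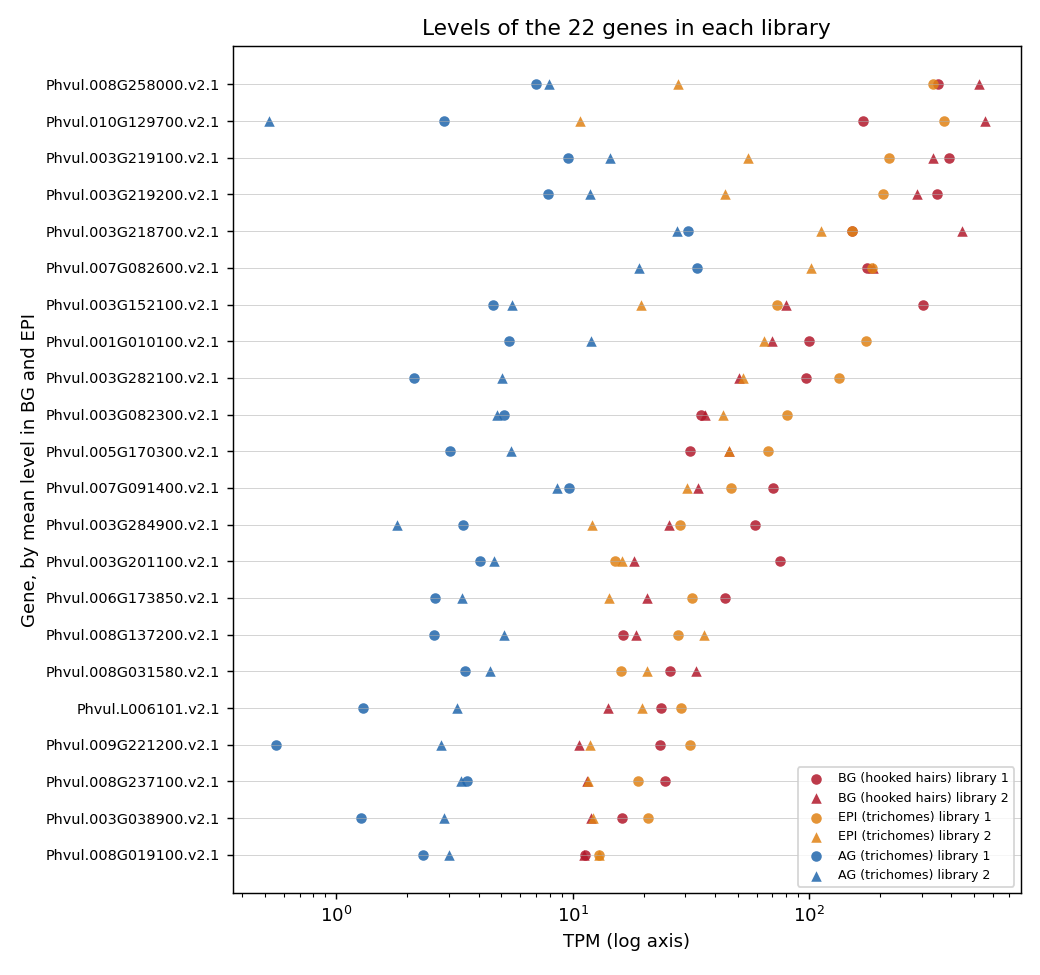
TPM of the 22 genes (rows, ordered by mean level over the BG and EPI libraries) in each library on a log axis; color gives the group and shape the library. In all 22 rows the AG points lie left of the others, and EPI library 2 (triangles) lies far left of EPI library 1 in the rows of the 4 most abundant genes.

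The most abundant member was Phvul.008G258000.v2.1 (chromosome 8, 60491019 to 60493275). It stood at 352 and 523 TPM in BG, 336 and 28.01 TPM in EPI, and 7.00 and 7.96 TPM in AG. EPI library 1 thus lay just below the hooked hairs, and EPI library 2 was 11.99-fold lower than EPI library 1. The second was Phvul.010G129700.v2.1 (chromosome 10, 41082223 to 41083071). It stood at 169 and 554 TPM in BG, 371 and 10.7 TPM in EPI, and 2.86 and 0.518 TPM in AG. Its EPI libraries differed 34.6-fold, the widest gap between replicate libraries among the 22, and EPI library 2 barely passed the 10 TPM floor. The mean of both genes in EPI, 182 ± 218 and 191 ± 255 TPM (SD, n = 2), is smaller than its own SD.

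On chromosome 3 the neighbours Phvul.003G219100.v2.1 and Phvul.003G219200.v2.1 showed the same shape. Phvul.003G219100.v2.1 stood at 392 and 334 TPM in BG, 218 and 55.0 TPM in EPI, and 9.60 and 14.4 TPM in AG. Phvul.003G219200.v2.1 stood at 347 and 286 TPM in BG, 205 and 44.0 TPM in EPI, and 7.84 and 11.8 TPM in AG. Both BG libraries of each gene were above both EPI libraries, and both EPI libraries were above AG. Another gene close by, Phvul.003G218700.v2.1, reached 152 and 445 TPM in BG, 152 and 112 TPM in EPI, and 30.7 and 27.6 TPM in AG. Here the EPI libraries were alike, within 1.35-fold, and it was the BG libraries that differed, 2.94-fold.

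Phvul.003G152100.v2.1 (chromosome 3, 36705636 to 36706088) had the highest ratio of BG to EPI among the members, 4.14. It stood at 303 and 80.2 TPM in BG, 73.0 and 19.5 TPM in EPI, and 4.58 and 5.54 TPM in AG. Its BG and EPI libraries did not overlap, though BG library 2 and EPI library 1 lay close. Phvul.003G201100.v2.1 (chromosome 3, 42627669 to 42633085) had the next highest ratio, 3.00, which came from a single library, at 75.5 TPM in BG library 1 against 18.3 TPM in BG library 2. It stood at 15.1 and 16.2 TPM in EPI and at 4.05 and 4.64 TPM in AG. BG library 2 was close to both EPI libraries.

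Other members were as high in EPI as in hooked hairs, or higher. Phvul.003G282100.v2.1 (chromosome 3, 51931056 to 51932514) lay farthest inside the rule, with its lowest BG or EPI library 10.1 times its highest AG library. It stood at 97.0 and 50.5 TPM in BG, 134 and 52.8 TPM in EPI, and 2.14 and 5.02 TPM in AG, so BG and EPI covered the same range. Next by this measure came Phvul.003G082300.v2.1 (6.82 times), Phvul.005G170300.v2.1 (5.73 times) and Phvul.001G010100.v2.1 (5.404 times). For these 4 genes the EPI mean was above the BG mean.

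Phvul.003G082300.v2.1 (chromosome 3, 13663735 to 13665489) stood at 35.1 and 36.5 TPM in BG, 81.1 and 43.2 TPM in EPI, and 5.14 and 4.81 TPM in AG. Phvul.005G170300.v2.1 (chromosome 5, 39633610 to 39635359) stood at 31.5 and 45.79 TPM in BG, 67.2 and 45.86 TPM in EPI, and 3.02 and 5.504 TPM in AG. In both genes each EPI library was above each BG library, for Phvul.005G170300.v2.1 by a very small margin in library 2. Phvul.001G010100.v2.1 (chromosome 1, 787742 to 791802) stood at 99.7 and 69.5 TPM in BG, 175 and 64.4 TPM in EPI, and 5.36 and 11.9 TPM in AG. Its BG libraries lay between its EPI libraries.

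Phvul.008G019100.v2.1 (chromosome 8, 1591631 to 1595139) was the least abundant member and the most even. It stood at 11.3 and 11.2 TPM in BG, 13.0 and 12.9 TPM in EPI, and 2.33 and 3.01 TPM in AG. Phvul.008G137200.v2.1 (chromosome 8, 27808544 to 27810738) had the lowest ratio of BG to EPI, 0.545, with 16.3 and 18.6 TPM in BG, 27.9 and 36.0 TPM in EPI, and 2.60 and 5.14 TPM in AG. Phvul.008G031580.v2.1 (chromosome 8, 2537545 to 2542763) ran the other way, at 25.7 and 33.2 TPM in BG, 16.0 and 20.7 TPM in EPI, and 3.50 and 4.46 TPM in AG. All 3 genes kept within 2-fold between the libraries of each group, and in none of the 3 did EPI library 2 fall far below EPI library 1.

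Phvul.007G082600.v2.1 (chromosome 7, 8305798 to 8308096) was abundant in all groups, at 176 and 187 TPM in BG, 185 and 102 TPM in EPI, and 33.5 and 19.0 TPM in AG. Phvul.007G091400.v2.1 (chromosome 7, 9500368 to 9501075) stood at 70.6 and 33.9 TPM in BG, 46.8 and 30.6 TPM in EPI, and 9.64 and 8.55 TPM in AG. BG and EPI overlapped in each. Phvul.003G284900.v2.1 (chromosome 3, 52271022 to 52271789) had 58.9 and 25.6 TPM in BG, 28.5 and 12.03 TPM in EPI, and 3.44 and 1.81 TPM in AG, with library 2 the lower one in every group. Phvul.006G173850.v2.1 (chromosome 6, 27680601 to 27681098) had 44.2 and 20.6 TPM in BG, 32.1 and 14.2 TPM in EPI, and 2.62 and 3.40 TPM in AG.

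The remaining 4 members had at most 31.3 TPM in any library. Phvul.L006101.v2.1, on scaffold_14 (599276 to 601282), had 23.6 and 14.2 TPM in BG, 28.7 and 19.6 TPM in EPI, and 1.30 and 3.25 TPM in AG. Phvul.009G221200.v2.1 (chromosome 9, 33383301 to 33383723) had 23.4 and 10.6 TPM in BG, 31.3 and 11.8 TPM in EPI, and 0.553 and 2.77 TPM in AG. In both, the EPI mean was the higher one and the groups overlapped. Phvul.008G237100.v2.1 (chromosome 8, 58555905 to 58557622) had 24.6 and 11.5 TPM in BG, 18.9 and 11.6 TPM in EPI, and 3.56 and 3.38 TPM in AG, and Phvul.003G038900.v2.1 (chromosome 3, 4215776 to 4217396) had 16.1 and 12.01 TPM in BG, 20.7 and 12.2 TPM in EPI, and 1.27 and 2.84 TPM in AG. Library 2 of BG and library 2 of EPI were nearly equal in these last genes.

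Mean read coverage per base, which the files give for each gene, had a median over the 22 genes of 105 and 45.0 in BG, 76.0 and 26.4 in EPI, and 4.45 and 6.69 in AG. The lowest value was 0.697 in AG library 1 and 0.706 in AG library 2. Coverage was lowest in AG because the genes were chosen to be low there. Per TPM, the median coverage of the members was 1.62 and 1.28 in BG, 1.33 and 1.08 in EPI, and 1.26 and 1.36 in AG, so EPI library 2 was the shallowest library and the AG libraries lay within the range of the others. The AG libraries differed most for Phvul.010G129700.v2.1, by 5.52-fold, and for Phvul.009G221200.v2.1, by 4.998-fold.

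The threshold itself did not fall in a gap. The members just inside 3-fold were Phvul.007G082600.v2.1, at 3.06 times the highest AG library, Phvul.008G137200.v2.1 at 3.17 and Phvul.007G091400.v2.1 at 3.18. Just outside lay Phvul.006G164900.v2.1 at 2.98, Phvul.006G219100.v2.1 at 2.93 and Phvul.004G080600.v2.1 at 2.92. Phvul.004G080600.v2.1 (chromosome 4, 19165820 to 19166342) was abundant, at 422 and 357 TPM in BG, 505 and 253 TPM in EPI, and 16.7 and 86.5 TPM in AG, and it missed the rule through AG library 2. Among the 22, 15 lay under 4-fold and 4 above 5-fold.

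**Figure D2:**
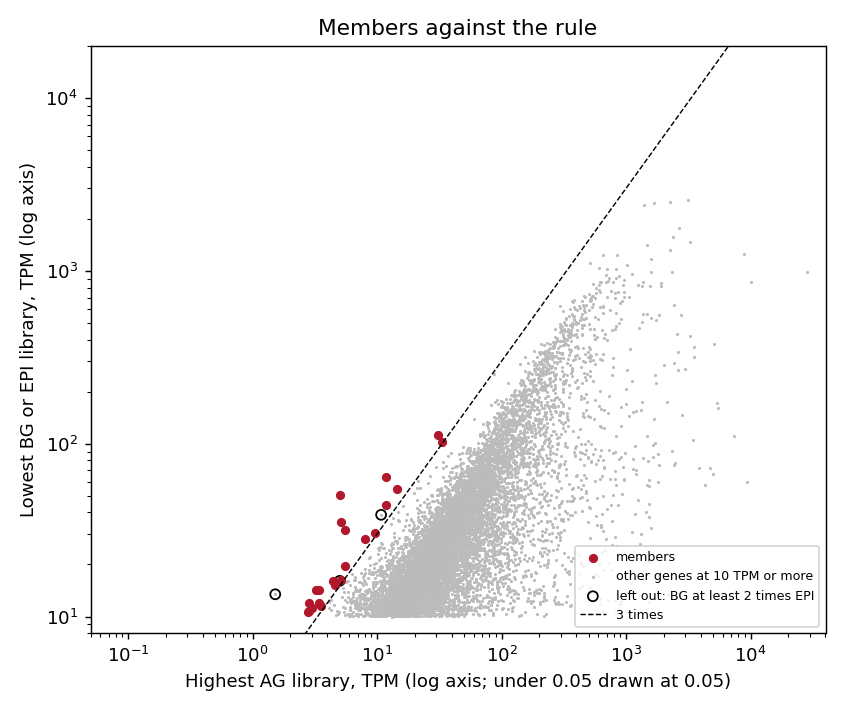
The lowest BG or EPI library (vertical) against the highest AG library (horizontal), in TPM on log axes, for the 10407 genes at 10 TPM or more in all BG and EPI libraries. The 22 members lie above the dashed line of 3 times AG, most of them close to it, and the 3 open circles were left out because BG was at least 2 times EPI.

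The 3 genes left out for being higher in hooked hairs showed the neighbouring pattern. Phvul.002G027200.v2.1 (chromosome 2, 2850271 to 2852495) stood at 125 and 83.6 TPM in BG, 20.7 and 13.4 TPM in EPI, and 1.52 and 0.204 TPM in AG, a stepwise order with no overlap. Phvul.007G042400.v2.1 and Phvul.008G216100.v2.1 were left out narrowly, with their lower BG library 2.13 and 2.19 times their higher EPI library. For Phvul.002G027200.v2.1 this ratio was 4.03.

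Hooked hairs and EPI were compared within the set. The BG mean was the higher one for 13 of the 22 genes, (59.1%, beside 57.8% of the 10407 genes at 10 TPM or more), and the median ratio of BG to EPI was 1.31, from 0.545 to 4.14. The direction of this median was not stable. As a median log2 difference of BG minus EPI it was 0.38, and it was -0.11 without BG library 1, -0.12 without EPI library 2 and 0.59 without EPI library 1. All BG libraries were above all EPI libraries for 6 of the 22 genes, beside 2666 of the 10407 genes and 25.2% of the 21571 genes. All EPI libraries were above BG for 4 of the 22, beside 2201 of the 10407 genes and 25.6% of the 21571 genes. The other 12 (54.5%) overlapped, beside 53.2% of the 10407 genes, so the share of overlap was close to that of the larger set. The genes without overlap are Phvul.008G258000.v2.1, Phvul.003G219100.v2.1, Phvul.003G219200.v2.1, Phvul.003G152100.v2.1, Phvul.003G201100.v2.1 and Phvul.008G031580.v2.1 on the hooked-hair side, and Phvul.003G082300.v2.1, Phvul.005G170300.v2.1, Phvul.008G137200.v2.1 and Phvul.008G019100.v2.1 on the EPI side. The genes on the EPI side had means of 11.2 to 38.7 TPM in BG, while 4 of the 6 on the hooked-hair side averaged 191.5 TPM or more in BG. The sides were set by BG against EPI, so this difference in BG level is partly fixed and nothing is drawn from it.

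The same contrasts were fitted over all 21571 genes with limma, on log2(TPM + 1) with Benjamini-Hochberg adjustment at 0.05. BG was called above AG for 21 of the 22 members, the exception being Phvul.009G221200.v2.1, beside 3.49% of all genes (8.83% in either direction and 5.34% lower in BG). EPI was called above AG for 0 of the 22, beside 0% of all genes, although 22 of 22 had an unadjusted p under 0.05, as did 10.5% of all genes in this direction. BG differed from EPI for 0 of the 22 by limma, beside 4.99% of all genes in either direction (1.66% higher and 3.32% lower in BG), and 3 members had an unadjusted p under 0.05, all with BG higher, as did 8.54% of all genes in this direction. As the rule read these contrasts, nothing is drawn from these counts. The median log2 difference of the members was 2.89 between BG and AG and 2.74 between EPI and AG, beside 0.18 and 0.15 over all genes in the fit. These comparisons share the AG libraries. The BG count was 0 without AG library 1, without BG library 1 or without BG library 2, where limma called 0 genes in all, and it was 11 without AG library 2. It was also 0 with no filter on low values.

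EPI library 2 was the lowest of the 4 BG and EPI libraries for 11 of the 22 genes, BG library 2 for 6, BG library 1 for 3 and EPI library 1 for 2. EPI library 1 was above EPI library 2 for 19 of the 22 genes (86.4%), against 43.4% of the 10407 genes at 10 TPM or more. The rule read both EPI libraries, and the share moved with it, at 44.8% of the 29 genes that met the rule without EPI library 1, 98.5% of the 204 genes without EPI library 2 and 67.8% of the 115 genes at 2-fold over AG. The 3 exceptions were Phvul.003G201100.v2.1, Phvul.008G137200.v2.1 and Phvul.008G031580.v2.1. The gap between the EPI libraries exceeded 2-fold for 10 members (45.5%), beside 6.07% of the 10407 genes. For the BG libraries this held for 9 members (40.9%) beside 6.61%, and for the AG libraries for 6 members (27.3%) beside 12.6%. Only 6 of the 22 kept within 2-fold in all 3 groups, beside 80.5% of the 10407 genes. Large differences between the EPI libraries and between the BG libraries were thus common in the set. EPI library 1, the one with the higher levels here, is also the one nearer to hooked hairs over all genes. Its part in the result was not tested.

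**Figure D3:**
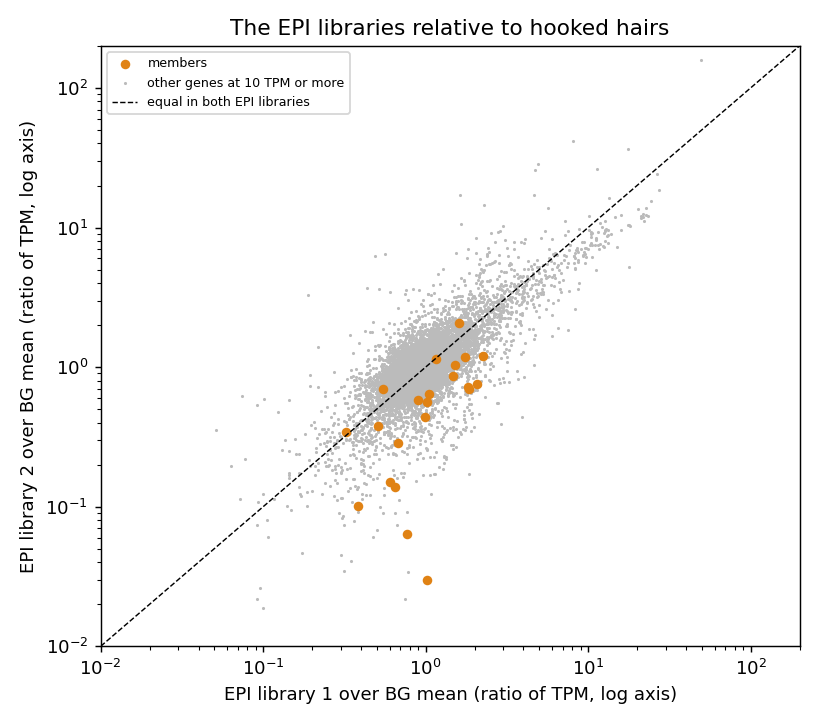
EPI library 1 (horizontal) and EPI library 2 (vertical), each as a ratio to the mean BG level on log axes, for the 22 members and the other genes at 10 TPM or more in all BG and EPI libraries. Most members lie below the dashed line of equal EPI libraries, and Phvul.010G129700.v2.1 is the lowest of them, level with BG in EPI library 1 and far below it in EPI library 2.

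Leaving out a library changed which genes met the rule. Without EPI library 1, 16 of the 22 met it. The 6 that did not were Phvul.008G258000.v2.1, Phvul.010G129700.v2.1, Phvul.003G219100.v2.1, Phvul.003G219200.v2.1, Phvul.003G152100.v2.1 and Phvul.003G284900.v2.1, which include the 4 most abundant members. With EPI library 2 as the only EPI library, these genes were at least 2 times higher in hooked hairs. Their place among genes shared by EPI and hooked hairs thus rests on EPI library 1. Without BG library 1, Phvul.003G218700.v2.1 did not meet the rule, and without BG library 2, Phvul.003G152100.v2.1, Phvul.003G201100.v2.1 and Phvul.003G284900.v2.1 did not. The other 14 members met it whichever library was left out, an outcome that the rule partly fixed. Leaving out a library cannot lower a minimum or raise a maximum, so no member could fall below 10 TPM or 3-fold. Only the step that compared BG with EPI could remove a member, so staying in the set is weak evidence of stability. Of these 14, 10 also met it after median-of-ratios scaling: Phvul.001G010100.v2.1, Phvul.003G038900.v2.1, Phvul.003G082300.v2.1, Phvul.003G282100.v2.1, Phvul.005G170300.v2.1, Phvul.006G173850.v2.1, Phvul.008G019100.v2.1, Phvul.008G031580.v2.1, Phvul.008G137200.v2.1 and Phvul.L006101.v2.1.

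Position was not part of the rule. The members lay on 8 of the chromosomes and 1 scaffold. Chromosome 3 held 9 of the 22 (40.9%), where it held 12.1% of the 10407 genes at 10 TPM or more, and chromosome 8 held 5 (22.7%), beside 9.85%. Chromosomes 2, 4 and 11 held 0, beside 12.4%, 5.602% and 6.82%. Outside the neighbourhood described next, 6 of the other 19 members lay on chromosome 3. The share of chromosome 3 moved with the setting of the rule. It was 50% of 10 genes with a floor of 20 TPM, 46.7% of 15 genes after median-of-ratios scaling and 42.9% of 7 genes at 4-fold over AG. It was 15.7% of 115 genes at 2-fold over AG and 31.6% of 38 genes with a floor of 5 TPM. It was 14.7% of 204 genes without EPI library 2, 24.1% of 29 genes without EPI library 1 and 16.1% of 267 genes without AG library 2. Without BG library 2, BG library 1 or AG library 1 it was 30%, 28.6% and 27.8%. The share of chromosome 8 was 26.7% after median-of-ratios scaling, 25% without BG library 2 and 21.4% without BG library 1. It was 18.4% with a floor of 5 TPM, 17.2% without EPI library 1 and 16.7% without AG library 1. Lower shares were 13.7% without EPI library 2, 11.99% without AG library 2 and 10.4% at 2-fold over AG. The lowest were 10% with a floor of 20 TPM and 0% at 4-fold over AG.

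**Figure D4:**
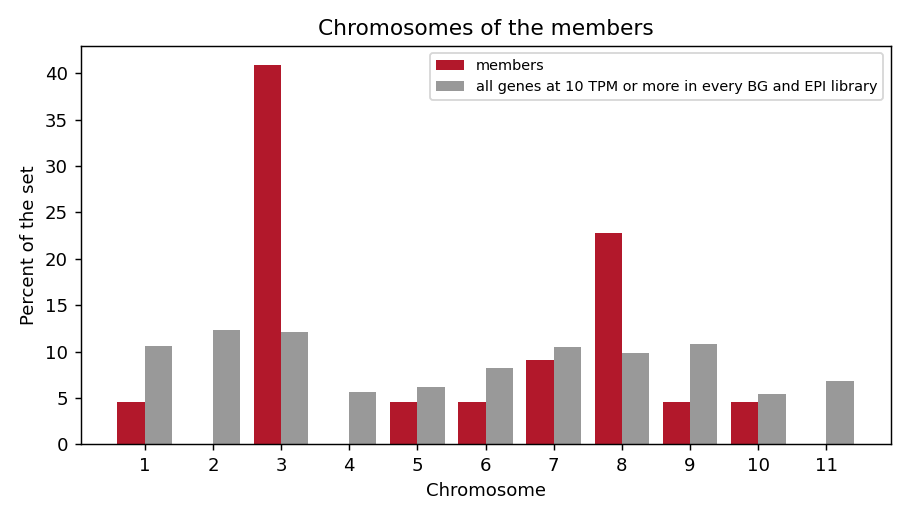
Percent of the 22 members and of the 10407 genes at 10 TPM or more in all BG and EPI libraries on each of the chromosomes; bars start at 0. Chromosome 3 holds 40.9% of the members against 12.1% of the larger set, and the member on a scaffold is not drawn.

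A stretch of chromosome 3 held 3 members among 7 consecutive genes, from Phvul.003G218600.v2.1 (start 44716031) to Phvul.003G219200.v2.1 (end 44766205), a span of 50.2 kb. Summed over the 7 genes, the level was 1241 and 1799.6 TPM in BG, 864 and 357 TPM in EPI, and 67.6 and 126 TPM in AG. All 4 BG and EPI libraries were above both AG libraries. The mean sum was 15.7-fold higher in BG than in AG (12.1 to 22.5 with 1 library left out) and 6.31-fold higher in EPI than in AG. Without EPI library 1 the EPI fold was 3.69, and without AG library 2 it was 9.03. The stretch was chosen after its values were seen. Its 3 members did not hold under every setting of the rule. Phvul.003G218700.v2.1 did not meet the rule after median-of-ratios scaling or without BG library 1. Phvul.003G219100.v2.1 and Phvul.003G219200.v2.1 did not meet it without EPI library 1.

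The genes in the stretch did not share 1 pattern. Phvul.003G219100.v2.1 and Phvul.003G219200.v2.1 lie on opposite strands with a gap of 3080 bp. Their ratio of TPM was 1.13 and 1.17 in BG, 1.06 and 1.25 in EPI, and 1.22 and 1.21 in AG, so they kept nearly the same proportion while their levels ranged from 7.84 to 392 TPM. Phvul.003G218600.v2.1, outside the rule at 2.02 times AG, stood at 80.3 and 343 TPM in BG, 44.4 and 77.3 TPM in EPI, and 12.5 and 22.02 TPM in AG. Like the adjacent member Phvul.003G218700.v2.1, it was highest in BG library 2.

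Phvul.003G218900.v2.1 (44749294 to 44750066) stood at 161 and 261 TPM in BG, 226 and 68.5 TPM in EPI, and 6.88 and 50.2 TPM in AG. It would have met the 3-fold rule but for AG library 2. Phvul.003G218800.v2.1 (44740686 to 44741628) was high in hooked hairs, at 109 and 129.9 TPM in BG, against 18.1 and 0.0342 TPM in EPI and 0.0783 TPM and a listed 0 in AG. Phvul.003G219000.v2.1 was listed at 0 in all libraries but EPI library 2, where it stood at 0.152 TPM. The next gene beyond the stretch, Phvul.003G219300.v2.1, was abundant everywhere, at 255 and 260.3 TPM in BG, 307 and 260.4 TPM in EPI, and 219 and 214 TPM in AG. Sequences were not compared here, so whether reads were split between neighbours of like sequence was not tested, and these levels are uncertain to that extent.

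**Figure D5:**
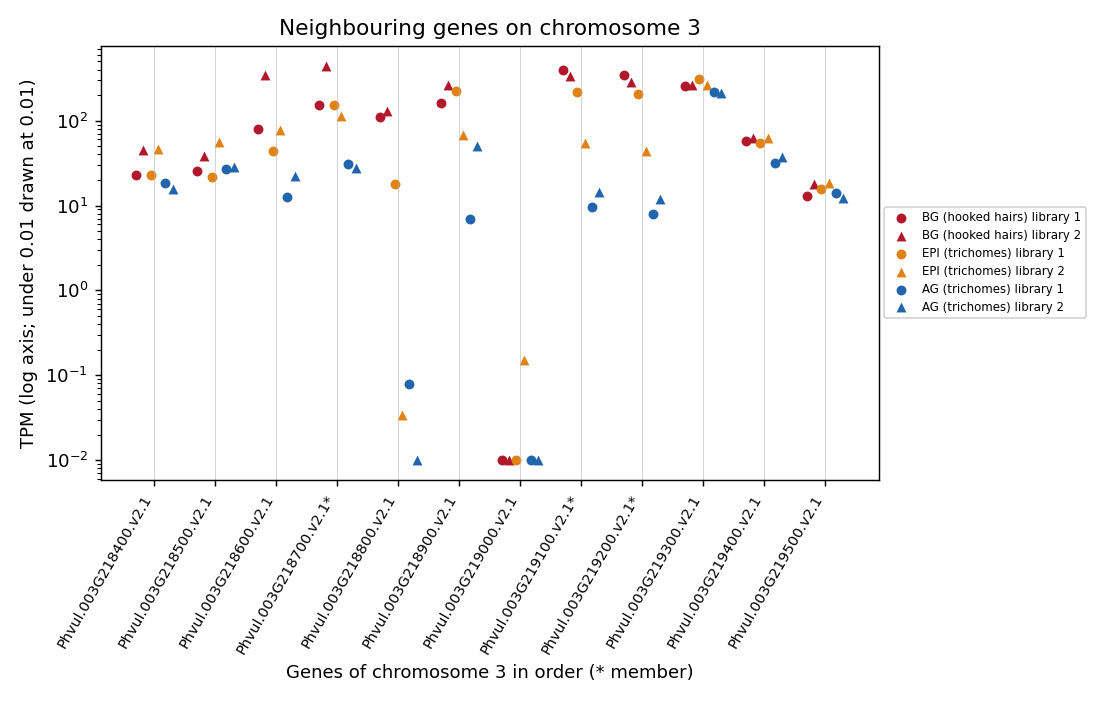
TPM on a log axis of 12 consecutive genes of chromosome 3 in their order, in each library; asterisks mark members, color gives the group and shape the library. From Phvul.003G218600.v2.1 to Phvul.003G219200.v2.1 the BG points stand well above the AG points in 6 of the 7 genes, while the groups lie close in the 3 genes after the stretch.

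Genes beside each member were examined as well. Among the 36 genes that lie next to a member, are not members and were in the limma fit, 12 (33.3%) had all BG and EPI libraries above both AG libraries, beside 20.1% of all genes in the fit. These 12 include Phvul.003G218600.v2.1 and Phvul.003G219300.v2.1, at the stretch described above. Some lay close together, such as Phvul.003G285000.v2.1, at 106 and 122 TPM in BG, 114 and 102 TPM in EPI, and 94.0 and 80.6 TPM in AG. Phvul.003G152200.v2.1 followed the pattern of its neighbour Phvul.003G152100.v2.1, at 146 and 33.9 TPM in BG, 83.0 and 21.7 TPM in EPI, and 4.36 and 10.8 TPM in AG. Phvul.009G221300.v2.1 was close to its neighbour Phvul.009G221200.v2.1 in BG and in EPI library 1 but not in EPI library 2. It stood at 25.3 and 9.26 TPM in BG, 35.6 and 1.62 TPM in EPI, and 0.133 and 0.234 TPM in AG. The member had 11.8 TPM in EPI library 2. Beside Phvul.008G258000.v2.1, Phvul.008G257900.v2.1 stood at 224 and 493 TPM in BG, 79.0 and 1.65 TPM in EPI, and 6.43 and 0.758 TPM in AG, so EPI library 2 lay within the AG range.

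The neighbours of Phvul.010G129700.v2.1 went other ways. Phvul.010G129600.v2.1 stood at 2.64 and 16.5 TPM in BG, 6.46 and 151.7 TPM in EPI, and 122 and 9.68 TPM in AG, with wide gaps between libraries in each group. Phvul.010G129800.v2.1 stood at 18.3 and 140.3 TPM in BG, was listed at 0 in both EPI libraries, and stood at 6.54 and 0.123 TPM in AG. Phvul.003G282100.v2.1, the member farthest from AG, was flanked by Phvul.003G282000.v2.1 and Phvul.003G282200.v2.1, which stood between 5.21 and 18.8 TPM in all 6 libraries. Neither adjacent gene had its pattern.

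The members were short genes. Their median span, from gene start to gene end, was 1670 bp, from 423 bp (Phvul.009G221200.v2.1) to 5417 bp (Phvul.003G201100.v2.1), against 3871 bp over the 10407 genes at 10 TPM or more. A span under 2000 bp was found for 14 of the 22 (63.6%), beside 19.3% of the larger set. In the lists obtained by leaving out a library the median span was 1734 to 2230.0 bp, and it was 2195 bp at 2-fold over AG. By strand, 12 lay on the plus strand, beside 50.8% of the larger set.

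Members were matched by position to genes of RefSeq on the assembly P. vulgaris v2.0. For 15 of the 22 (68.2%) a RefSeq gene overlapped them over at least 80% of the longer of both, beside 88.2% of the 10407 genes. Among these, Phvul.008G258000.v2.1 corresponds to LOC137824437, Phvul.010G129700.v2.1 to LOC137818777, Phvul.003G219100.v2.1 to LOC137808058, Phvul.003G218700.v2.1 to LOC137808054, Phvul.003G282100.v2.1 to LOC137808649, Phvul.003G082300.v2.1 to LOC137806739, Phvul.005G170300.v2.1 to LOC137835955 and Phvul.001G010100.v2.1 to LOC137816362. RefSeq lists 14 of the 15 (93.3%) as protein-coding, beside 99.1% of the matched genes among the 10407, and Phvul.003G201100.v2.1 (LOC137807875) as a pseudogene. A single transcript is listed for 12 of the 15 (80.0%), beside 67.0% of the matched genes among the 10407. The symbols carry no product, and no role is given to any of these genes here.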

How the data were processed

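The 6 libraries fall into 3 groups of 2 by their labels. Extraction used an RNeasy mini plus kit and library preparation a SMARTER mRNA-Seq kit, per the labels' protocols, which do not state whether strand was kept. The submitters' processing notes list Trimmomatic, HISAT2 and StringTie with no version. Each deposited table lists, per the file headers, TPM (used here), FPKM (the authors' other normalization, used as an alternative) and coverage (mean signal per base, used for depth). Read totals are unknown, so no counting intervals are given.

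A genome build was not given in the sources used here. Of the gene IDs, 0 occur in the 34165 rows of the RefSeq table of P. vulgaris v2.0, but 75.9% of the 27012 genes on chromosomes overlapped a RefSeq gene over at least 80% of the longer one, against 1.43% after a shift of 100000 bp. Positions are printed as the files give them.

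Limma 3.58.1 (R 4.3.3) was fitted to log2(TPM + 1), which understates changes of low genes, over genes that reached 1 TPM in 2 or more libraries. It used 1 mean per group, a variance trend, 3 residual degrees of freedom and two-sided tests. It was also run on simulated data with independent noise and changes put into BG only, read for BG against AG. That run says nothing about EPI against AG or BG against EPI. With 2 libraries a group, p-values measure no more than how far these libraries differ, possibly for technical reasons. The members and lists were chosen with earlier results of these data known. The product classes and marker lists that were planned need product names and could not be applied. Members were named by level, by ratio to AG, by ratio of BG to EPI, by nearness to the threshold and by adjacency, among genes matched to RefSeq by position. The 7 unmatched members, the neighbouring genes and the genes left out were named after their values were seen. Alternatives are another floor, fold, pseudocount, filter or scaling, FPKM, a replicate block and each library left out. Figures were drawn with matplotlib 3.10.9.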

Additional observations from a re-analysis of the deposited data

How the results depend on the processing

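The number of genes that met the rule was 38 with a floor of 5 TPM, 10 with a floor of 20 TPM, 115 at 2-fold over AG, 7 at 4-fold over AG and 10 on FPKM values, and 288 when group means replaced the lowest and highest libraries, a setting chosen after seeing the data in which 15 of the 22 remained. Median-of-ratios scaling gave 15, all among the 22, and it moved the median log2 change over all genes from 0.18 to 0.04 for BG against AG and from 0.15 to 0.01 for EPI against AG, while the members' medians moved to 2.755 and 2.604. Leaving out 1 library gave 20 (without BG library 2) to 267 (without AG library 2) genes, 204 without EPI library 2 and 36 without AG library 1. The median log2 difference of BG and EPI over the members, 0.38, ranged from -0.12 to 0.59 with 1 library left out, was -0.11 without BG library 1 and -0.12 without EPI library 2, so its sign depends on the library left out. The limma count of members for BG against AG was 0 with no filter on low values and 0 to 22 with 1 library left out. That for EPI against AG was 0 to 3 and that for BG against EPI 0 to 4, the highest values being those without EPI library 2 and without EPI library 1. The replicate numbers are not stated to mark a shared plant or day. Same-numbered libraries deviated from their group means with r = 0.245 (BG and EPI), 0.0956 (BG and AG) and -0.0319 (EPI and AG) and were not treated as pairs. With a replicate block, limma called 16 of the 22 for BG against AG, 0 for EPI against AG and 0 for BG against EPI.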
